A study of Mus musculus with 3 samples.

Results

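The cells described here are the MatFB-Im,Cuff cells of the GFP-low gate: 205 of the 6142 lung mesenchymal cells in the deposited data, and 16.0% of the 1284 cells of that gate. Members were taken by name, as every cell that the authors' cell table calls MatFB-Im,Cuff and assigns to the GFP-low, tdTomato-negative library. The abbreviated type names are used as deposited, since no label or file spells them out. All cells came from mouse pups at postnatal day 7 that carried Fgf18CreERT2/+, ROSATDTomato/+ and PdgfrαEGFP/+ and were given tamoxifen between postnatal days 2 and 5. In these animals tamoxifen activates a Cre recombinase expressed from the Fgf18 locus, which switches on tdTomato, while a green fluorescent reporter is expressed from the Pdgfra locus. Lung cells were dissociated enzymatically, live cells were sorted into 3 gates, and each gate gave 1 library: GFP-low tdTomato-negative, GFP-high tdTomato-negative and GFP-high tdTomato-high. Within the GFP-low library the 205 cells were set against the 850 other MatFB cells (199 MatFB-Type 1 and 651 MatFB-Type 2), against its 148 AdvFB cells and against all of its 66 MyoFB cells.

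Each gate has 1 library, so no difference has a replicate check, no test was made and no p-value is given. The labels do not say how many pups a library pools. The GFP-low library held cells of both sexes (counts below), and so of more than 1 pup. The types were also named from the same transcriptomes, so a contrast between types describes them and is not independent evidence. Levels are UMIs (unique transcript molecules counted) summed over a group's cells and scaled to a total of 1e6 (CPM). Intervals are exact 95% intervals that cover counting error only. The 205 cells held 4218501 UMIs, with 6134 to 43262 per cell and a median of 19715, against medians of 19328.5 in the other MatFB, 23570 in AdvFB and 20611.5 in MyoFB cells. The median mitochondrial share was 3.03% in the 205 cells, 3.90% in the other MatFB, 2.35% in AdvFB and 3.87% in MyoFB cells. Ribosomal protein genes took 12.8% of the UMIs of the 205 cells and 8.37% of those of the other MatFB cells. None of the 205 cell barcodes recurred in another library, and 3 barcodes of the whole GFP-low library did.

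Fibroblasts of the postnatal lung lie in several niches. Alveolar fibroblasts sit between the air sacs, support the epithelium and include lipid-storing cells; adventitial fibroblasts lie in the connective tissue around vessels and airways; alveolar myofibroblasts are contractile, elastin-producing cells that act while the air sacs are subdivided. Immediate early genes such as Fos, Jun and Egr1 encode transcription factors whose transcription starts within minutes of a stimulus without new protein synthesis, and enzymatic dissociation and sorting are known stimuli.

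Levels of 3 markers are given beside the type name. They are Tcf21, a transcription factor of the lung mesenchyme, Limch1, an actin-binding regulator of non-muscle myosin, and Npnt, which encodes the integrin ligand nephronectin. The types were named from these same cells, so the levels describe the name and do not check it. Tcf21 (chr10:22817281-22820174, mm10) stood at 1071 CPM in the 205 cells (1040 to 1103), at 858 in MatFB-Type 1, 1051 in MatFB-Type 2, 171 in AdvFB and 13.4 in MyoFB cells. Limch1 (chr5:66745827-67057158) stood at 3094 CPM (3041 to 3148), against 4885, 4371, 274 and 46.9 in the same order. Npnt (chr3:132881745-132950291) stood at 1239 CPM (1206 to 1273), against 1816, 2176, 55.1 and 16.8. The 3 markers therefore placed the 205 cells with the MatFB types and far from AdvFB and MyoFB, with Tcf21 at the level of the other MatFB cells and Limch1 and Npnt 1.45-fold (1.42 to 1.48) and 1.69-fold (1.64 to 1.74) below them. After thinning each cell to 5000 UMIs, 93.7% of the 205 cells held a Tcf21 UMI, against 1.52% of the MyoFB cells (99.5% and 18.2% without thinning).

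**Figure D1:**
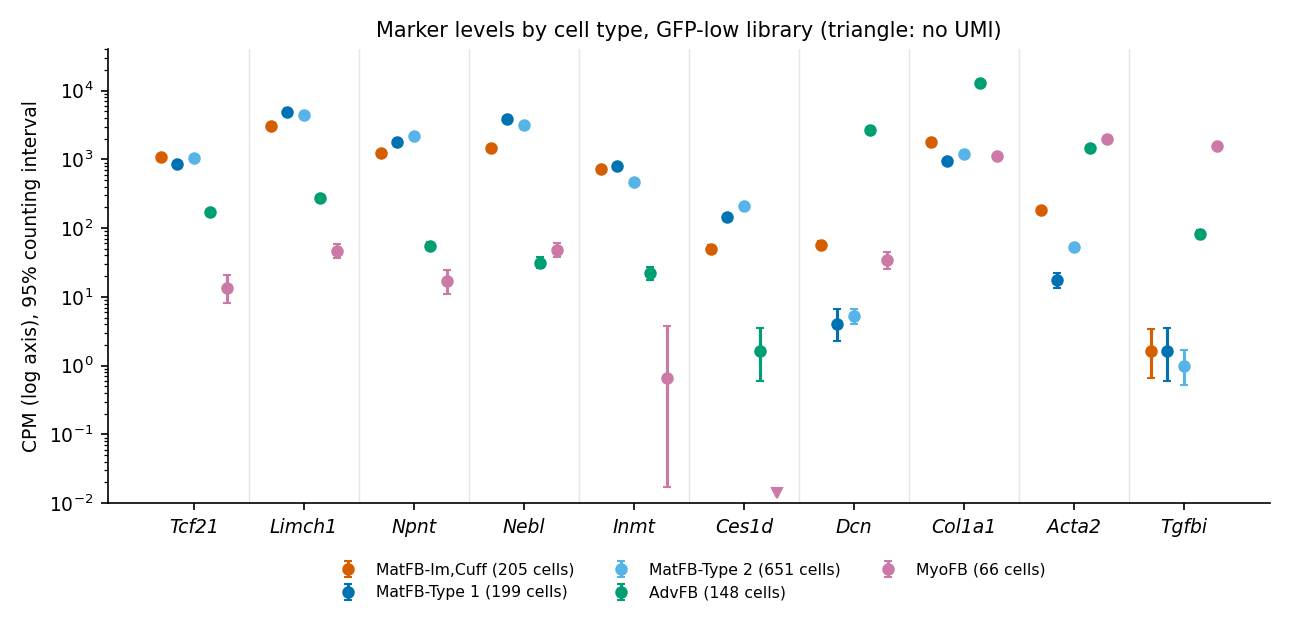
Levels (CPM, log axis, with 95% counting intervals) of alveolar fibroblast markers (Tcf21 to Ces1d), adventitial and collagen genes (Dcn, Col1a1), and contractile and myofibroblast genes (Acta2, Tgfbi) in 5 cell types of the GFP-low library. MatFB-Im,Cuff cells lay beside the other MatFB types for Tcf21 (1071 CPM), below them for Ces1d (49.5 CPM) and above them for Dcn (56.9 CPM), while AdvFB and MyoFB cells had at most 171 CPM of Tcf21.

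Against the other MatFB cells, the 205 cells were set apart by immediate early genes. Fos was at 1436 CPM in the 205 cells (1400 to 1473), at 43.5 in MatFB-Type 1 and at 139 in MatFB-Type 2, which is 12.2-fold (11.6 to 12.8) above both together. Jun was 7.0-fold higher (1412 against 202 CPM), and the zinc-finger factor Egr1 10.1-fold higher (715 against 70.6 CPM). Fos and Jun pair to form the AP-1 transcription factor, and Egr1 is induced with them by growth factors. Of 28 immediate early and dissociation genes, 27 reached 10 UMIs in either group, and all of these 27 were at least 1.5-fold higher, with a median log2 ratio of 2.31. Over all 17852 genes with 10 UMIs in either group, 10.3% were at least 1.5-fold higher and 14.8% lower, with a median of -0.083. The remaining member, Egr3, had 2.13 against 0.0594 CPM, and Myc reached 10 UMIs only in the 205 cells.

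The members of that list include transcription factors, feedback regulators and heat-shock genes. Atf3, a stress-induced factor, was at 83.2 against 4.04 CPM (20.6-fold, 15.8 to 27.1). The orphan nuclear receptor Nr4a1 was at 199 against 16.0 CPM (12.4-fold, 10.8 to 14.3). Klf4 and Klf2, Krüppel-like factors, stood at 79.2 against 6.42 and at 189 against 17.5 CPM. Feedback regulators of the list were also higher. Zfp36, which binds and destabilises cytokine mRNAs, was at 399 against 52.8 CPM, and Socs3, which blocks cytokine receptor signalling, at 235 against 35.0. Dusp1, a MAP kinase phosphatase, was at 279 against 82.1 CPM, and the heat-shock gene Hspa1a at 219 against 59.4 CPM.

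The upstream sequences of Fos and Nr4a1, both among the 12 highest genes, are shown because signalling to CREB, a factor that binds TGACG half-sites, is a known route to immediate early transcription. Each line gives the 250 bases before the annotated start, 5′ to 3′ on the gene's strand, from RefSeq on GRCm38.p6: Fos at chr12:85473640-85473889 (plus strand) and Nr4a1 at chr15:101266596-101266845 (plus strand). Capitals mark TGACG or its reverse complement CGTCA, and TATAAA, the TATA box core.
Fos: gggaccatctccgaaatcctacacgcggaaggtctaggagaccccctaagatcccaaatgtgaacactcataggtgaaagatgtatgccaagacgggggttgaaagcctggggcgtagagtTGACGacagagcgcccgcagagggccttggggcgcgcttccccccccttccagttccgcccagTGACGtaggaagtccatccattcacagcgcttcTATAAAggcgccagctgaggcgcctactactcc
Nr4a1: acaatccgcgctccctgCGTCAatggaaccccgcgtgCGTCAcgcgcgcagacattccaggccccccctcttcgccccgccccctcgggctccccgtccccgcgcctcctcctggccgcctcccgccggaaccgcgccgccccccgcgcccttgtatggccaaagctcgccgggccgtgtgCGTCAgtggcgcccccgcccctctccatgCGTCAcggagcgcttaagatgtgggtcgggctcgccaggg
The Fos window held 2 TGACG matches, which begin 129 and 66 bases before the start, and 1 TATAAA, which begins 33 bases before it. The Nr4a1 window held 4 TGACG matches, at 233, 213, 69 and 40 bases before the start, and no TATAAA. Of the 28 listed genes, 23 had a window in the table, and TGACG on either strand was in the window of 12 of them, against 19.8% of all 27025 genes. TATAAA on either strand was in 2 of the 23, against 14.3% of all genes. The matches describe letters in these windows, with no measurement of binding in these data.

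The immediate early signal was unevenly spread over the 205 cells. In cells thinned to 5000 UMIs the median was 21 immediate early UMIs per cell, with quartiles of 6 and 77 and a highest cell of 225. In the 850 other MatFB cells the median was 4, with quartiles of 2 and 7, and 90% of cells had 14 or fewer. Above 14 lay 57.1% of the 205 cells (117), and 36 of the 205 lay at or below the median of 4 of the other MatFB cells. The other types of the same library were not at the level of the other MatFB cells: the median was 59.5 in AdvFB and 14 in MyoFB cells. In AdvFB it was 74.5 in 56 cells that formed a contractile cluster and 17 in the other 92. Against AdvFB, none of the 28 listed genes was 1.5-fold higher in the 205 cells and 11 were lower (median -0.40), where 18.9% of all 14320 genes measured were higher and 18.7% lower. Against the 92 AdvFB cells alone, 2 were higher and 6 lower (median -0.26), where 21.2% of all 13843 genes were higher and 17.2% lower. Across the 205 cells the immediate early count went with a lower mitochondrial share (Spearman rho -0.47) and weakly with a higher UMI total (rho 0.24), as a description of cells that share 1 library. The part of cell handling in these counts was not tested.

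**Figure D2:**
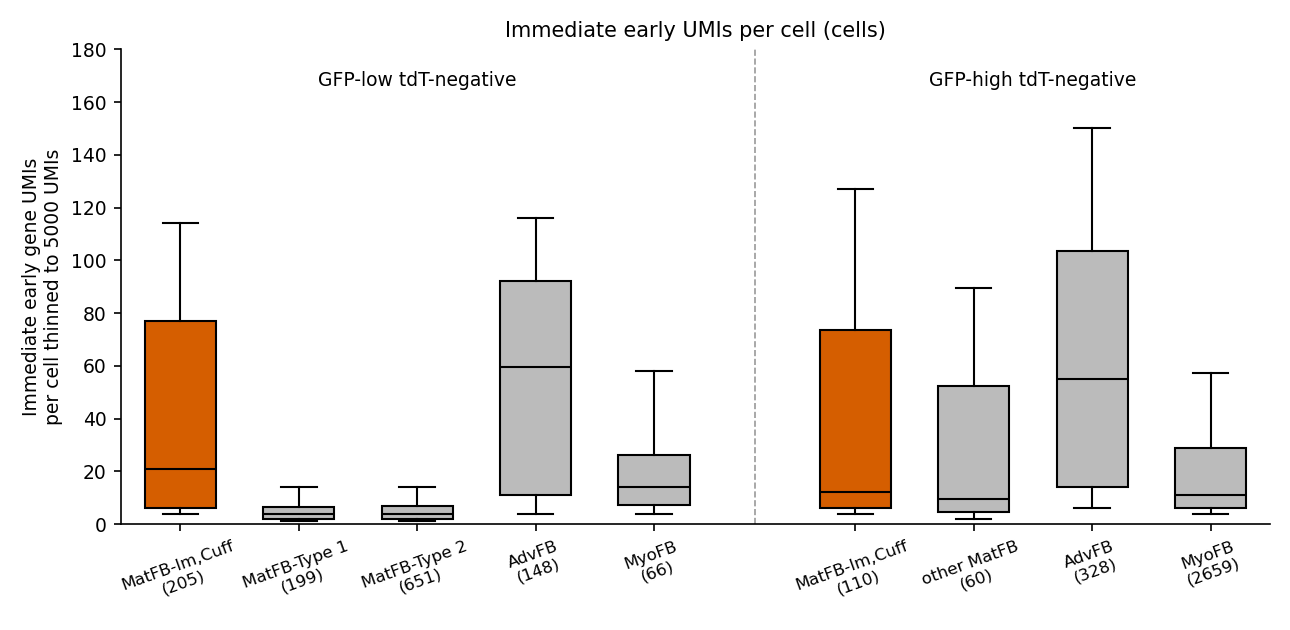
Immediate early UMIs per cell after thinning every cell to 5000 UMIs, by cell type and library, with the number of cells in parentheses. Boxes span the quartiles with the median as a line, and whiskers the 10th and 90th percentiles: in the GFP-low library MatFB-Im,Cuff cells (median 21) stood above both other MatFB types (median 4), and in the GFP-high library MatFB-Im,Cuff cells had a median of 12 and the other MatFB cells one of 9.5.

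Unsupervised Leiden clustering divided the 205 cells. At resolution 1.0, 152 fell in a cluster that also held 404 MatFB-Type 2 cells, 25 in a cluster with 198 MatFB-Type 1 cells, 10 in a second MatFB-Type 2 cluster, and 18 in a cluster that held 92 of the 110 MatFB-Im,Cuff cells of the GFP-high tdTomato-negative library and no other MatFB cell of the GFP-low library. At resolution 2.0 the other members formed a cluster of 70 and one of 73, and the remaining 44 were scattered over clusters made mostly of MatFB-Type 1 or Type 2 cells. The 70-cell cluster also held 23 MatFB-Type 2 cells and the 73-cell cluster 62. Clusters were built from the 2000 most variable genes of the same cells, so their values below describe them and support no further statement.

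The 70-cell cluster carried most of the immediate early signal, with a median of 94 such UMIs per thinned cell against 10 in the 73-cell cluster, 9 in the 18-cell cluster and 8 in the remaining 44 cells. Fos reached 3206 CPM there, against 402, 576 and 381 in the same order, and Egr1 1527 CPM, against 173, 671 and 198. The neutrophil chemokine Cxcl1 stood at 71.5 CPM in the 70 cells and 1.60 in the other MatFB cells, and the metallothionein Mt1 at 72.8 against 2.08. Of the 19 alveolar fibroblast markers, 12 were lower in these 70 cells than in the other MatFB cells and 1 was higher (median -0.85), while 11.8% of all 17774 genes measured were higher and 31% lower. Tcf21 was at 1336, Npnt at 1382 and Ces1d at 50.0 CPM there, and 61 of the 70 thinned cells had no more alveolar marker UMIs than the median other MatFB cell. The 70 cells had the lowest median mitochondrial share of the 4 sets, 2.59%. The immediate early difference was not confined to them: without these 70 cells the list's median log2 ratio against the other MatFB cells was 1.06 in place of 2.31, and in the 73-cell cluster alone 17 of 26 measured genes were higher and 1 lower (median 0.99). In the latter contrast 13.4% of all 17772 genes measured were at least 1.5-fold higher and 18.4% lower.

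**Figure D3:**
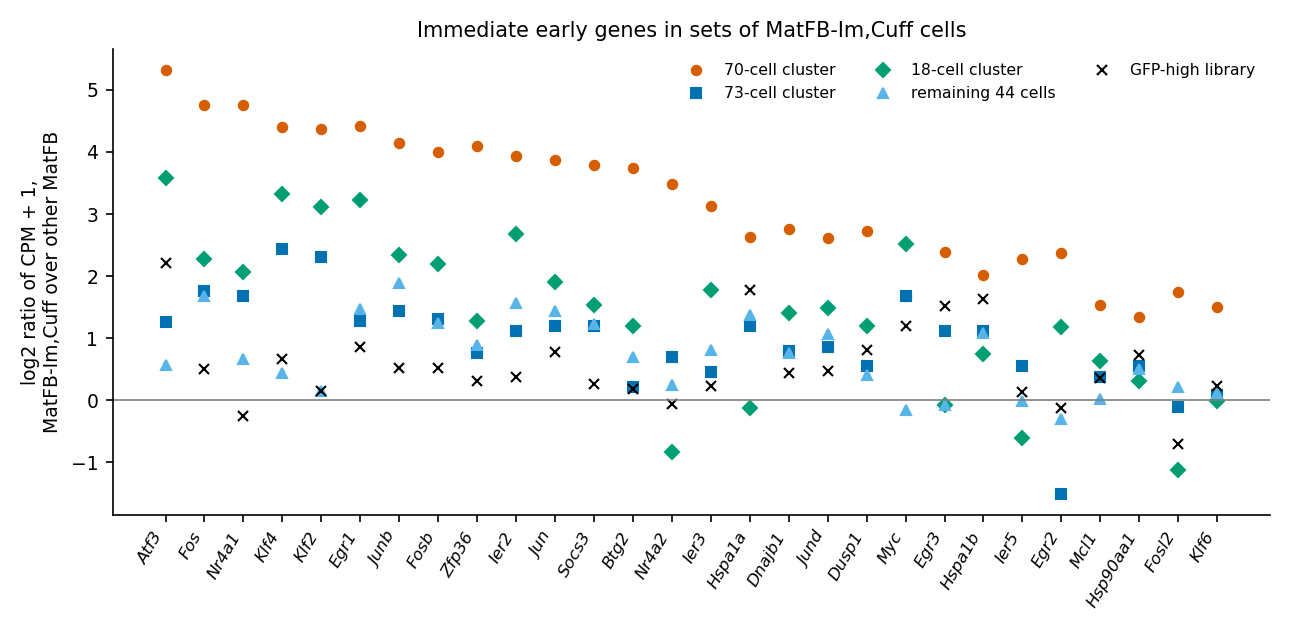
Log2 ratio of CPM + 1 for each immediate early gene in 4 sets of MatFB-Im,Cuff cells over the 850 other MatFB cells of the GFP-low library, and (crosses) in the MatFB-Im,Cuff over the other MatFB cells of the GFP-high tdTomato-negative library. The 70-cell cluster is highest for most genes, with Fos at 4.75, and the GFP-high contrast has a median of 0.44, with Fos at 0.50; Egr2, Egr3 and Myc rest on few UMIs.

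The 12 highest genes of the 73-cell cluster included none of the immediate early list and were of mixed function. Hpse2, a relative of heparanase without its enzymatic activity, was at 110 CPM against 4.93 in the other MatFB cells (22.2-fold, 17.0 to 29.3), and the guidance molecule Sema3d at 175 against 9.03. Lrat, which esterifies retinol for storage, was at 71.4 against 5.35 CPM, and Rbp4, a retinol carrier, at 149 against 12.5. The proteoglycan decorin (Dcn) was at 72 against 4.93 CPM and the imprinted non-coding RNA Meg3 at 66.2 against 3.98. Of the 19 alveolar fibroblast markers 14 were lower in these cells and 1 was higher (median -0.84), with the carboxylesterase Ces1d at 22.1 CPM against 195. Outside that list, the complement component C7 was at 37.0 CPM against 405 and the retinaldehyde dehydrogenase Aldh1a1 at 22.1 against 171. Hpse2 and Lrat stood at 9.75 and 9.10 CPM in the 70-cell cluster, and neither gene gave a UMI in the 18-cell cluster.

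The 18-cell cluster had a pattern of its own. Itgbl1, a secreted integrin-like protein (chr14:123659971-123975618), was at 630 CPM there and at 5.20 to 11.7 CPM in the other 3 sets. Over all 205 cells it had the highest ratio to the other MatFB cells of the genes ranked (63.1 against 1.90 CPM), and this place rested on these 18 cells. The Wnt inhibitor Wif1 was at 243 CPM and had 0 to 1.30 CPM in the other sets. The R-spondin receptor Lgr5 was at 162 CPM, the fibril-associated collagen Col14a1 at 544, Meg3 at 603 and the growth factor binding protein Igfbp2 at 94.7. Elastin (Eln) was at 10320 CPM, against 4245 to 4857 in the other 3 sets and 4764 in the other MatFB cells. Alveolar markers were low: Npnt at 192 CPM, Tcf21 at 530, Ces1d at 2.70, and C7 with no UMI. Tcf21 still stood above the 171 CPM of AdvFB cells. Alveolar fibroblast markers lay below the other MatFB cells by 1.5-fold or more in 18 of 19 cases and above in none (median -3.45). In that contrast 23% of the 17789 genes measured were higher and 36.9% lower.

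**Figure D4:**
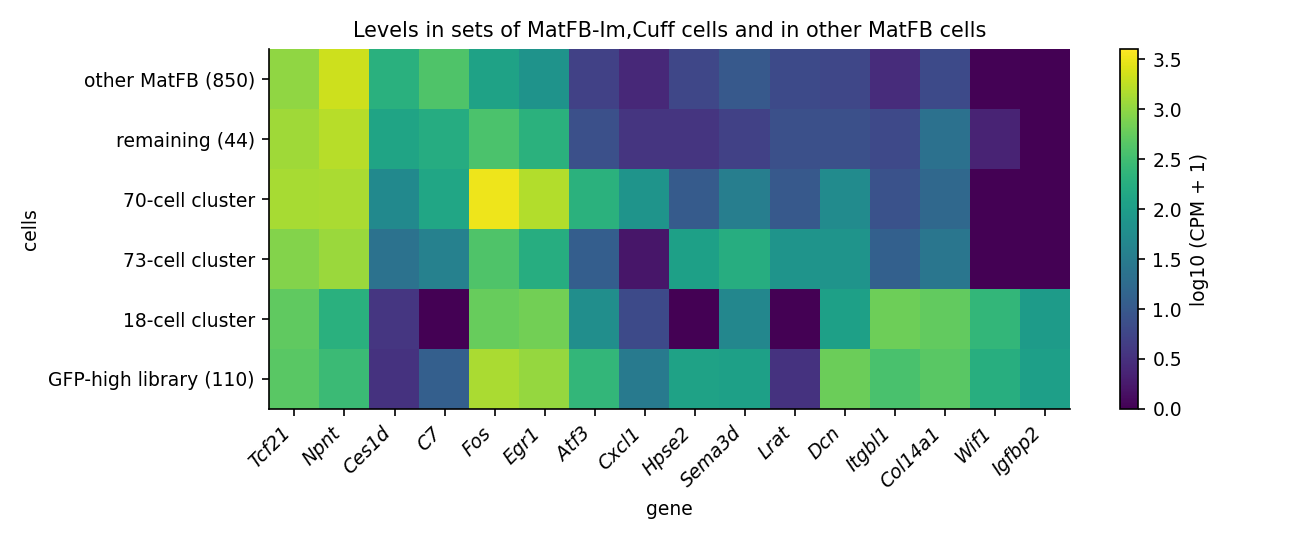
Levels (colour, log10 of CPM + 1) of 16 genes in the other MatFB cells, in 4 sets of MatFB-Im,Cuff cells of the GFP-low library and in the 110 MatFB-Im,Cuff cells of the GFP-high tdTomato-negative library, with the number of cells in the row names. Fos and Cxcl1 stand out in the 70-cell cluster, Hpse2 and Lrat in the 73-cell cluster, and Itgbl1, Wif1 and Igfbp2 in the 18-cell cluster and the GFP-high cells.

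Over all 205 cells, 111 of 3819 genes tested (2.91%) were at least 2-fold higher than in the other MatFB cells and 103 (2.7%) lower, among genes that reach 50 CPM in the higher group and are seen in 10% of its cells. Among the 12 highest, Atf3, Fos, Nr4a1, Klf4 and Klf2 are immediate early genes. Plat, which encodes tissue plasminogen activator, was at 56.9 against 3.80 CPM, with 101 CPM in the 70-cell cluster. Meg3 (92.4 against 3.98 CPM), the heparan sulfate endosulfatase Sulf1 (62.3 against 3.86), the neurotrophin receptor Ntrk3 (55.7 against 4.10), the secreted C1qtnf3 (53.8 against 4.16) and Col14a1 (66.4 against 5.35) were highest in the 18-cell cluster, where they reached 603, 330, 219, 471 and 544 CPM. Without these 18 cells 91 genes were higher and 95 lower (2.39% and 2.49% of 3812), and the 12 highest were led by Atf3, Fos, Nr4a1 and Plat. Itgbl1, Meg3, Sulf1, Ntrk3, C1qtnf3 and Col14a1 were no longer among them. That ranking requires 50 CPM, so leaving it need not mean that a difference was lost. Meg3 and Ntrk3 were among the 12 highest of the 73-cell cluster. In the 152 members of the largest resolution 1.0 cluster Meg3 was at 49.1 CPM, against 4.13 in its 405 other MatFB cells.

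Alveolar fibroblast markers were lower in the 205 cells. All 19 alveolar fibroblast markers were measured, 14 of them lower by 1.5-fold or more and none higher, with a median log2 ratio of -0.86. Of all 17852 genes measured in this contrast, 10.3% were higher and 14.8% lower. The alveolar marker median over the 187 cells outside the 18-cell cluster was -0.79. Ces1d was at 49.5 against 195 CPM (3.93-fold lower, 3.41 to 4.54). Slc7a10, an amino acid transporter, was at 38.4 against 133 CPM, and the growth factor receptor gene Fgfr4 at 134 against 371. Hsd11b1, which regenerates active glucocorticoid, was at 321 against 760 CPM, and Wnt2, a lung mesenchymal Wnt ligand, at 56.4 against 115. Tcf21 and Gyg, which primes glycogen synthesis, differed little (log2 ratios of 0.09 and -0.14), and Inmt and Adh1 were slightly higher (0.41 for both). Outside the list, the complement gene C7 was at 93.2 against 405 CPM, the BMP-binding Bmper at 102 against 410 and the guidance ligand Slit2 at 1790 against 4150. The 3 lowest ratios of the genes ranked were those of Ccser1 (6.87 against 59.1 CPM), the cytokine precursor Il16 (9.96 against 62.9) and the methyltransferase-like Mettl21e (31.8 against 178). Kctd8 and Inpp4b, among the 12 lowest, depended on the MatFB type: Kctd8 had 12.4 CPM in MatFB-Type 1 and 69.3 in MatFB-Type 2, and Inpp4b had 152 and 751, against 13 and 179 in the 205 cells.

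Several matrix and signalling lists had more genes higher than lower in the 205 cells, and the 18-cell cluster carried part of this. Among all 17852 genes measured, 10.3% were at least 1.5-fold higher and 14.8% lower. Without the 18-cell cluster these shares were 9.32% and 16.5% of 17814 genes. Of 18 adventitial fibroblast markers measured, 9 were higher and none lower (median 0.63): Dcn was at 56.9 against 4.93 CPM, against 2674 CPM in AdvFB cells. Over the same 18 genes the adventitial median was 0.37 without the 18-cell cluster and 1.02 without the 70-cell cluster. Of 23 collagen genes 10 were higher and 4 lower (median 0.55), with Col1a1 at 1819 against 1135 CPM; without the 18-cell cluster 5 of 21 were higher and 4 lower (median 0.47). Of 10 pericyte markers 8 were higher and none lower (median 1.07). The summed level of all 12 was 147 CPM, against 31.3 in the other MatFB and 2787 in AdvFB cells; Pdgfrb was at 16.4 and Rgs5 at 1.66 CPM, so these markers were sparse. Of 12 chemokine genes measured 10 were higher and none lower (median 1.39), on a summed level of 256 against 84.9 CPM in which Cxcl14 took 111 CPM. Of 19 matricellular genes 12 were higher and 3 lower (median 1.55); Thbs1, which encodes thrombospondin and is itself induced by growth factors, was at 243 against 50.8 CPM, and tenascin-C (Tnc) was 2.44-fold lower. Without the 18-cell cluster the matricellular median was 0.58. Of 16 PDGF and IGF genes 10 were higher and 1 lower (median 0.74), with the binding protein Igfbp7 at 1171 against 709 CPM, and over the same genes the median without the 18-cell cluster was 0.35. Smooth muscle actin (Acta2) was at 185 against 45.4 CPM, but Tagln was at 113 against 92.6, and 5 of 14 smooth muscle genes were higher and 1 lower (median 0.36), or 3 and 1 without the 18-cell cluster.

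Other signalling and regulatory lists were mixed, and several counts lay near the shares over all genes. Those shares were 10.3% higher and 14.8% lower of 17852 genes, or 9.32% and 16.5% of 17814 without the 18-cell cluster. Of 15 retinoid genes 4 were higher and 2 lower (median 0.41): the retinol carrier Rbp4 was at 127 against 12.5 CPM, and the retinoic acid binding protein Crabp1 at 9.72 against 45.6. Of 26 lipid handling genes 3 were higher and 6 lower (median 0.018), with Pparg, the adipogenic nuclear receptor, at 3.08 against 17.3 CPM and Apoe at 840 against 862. Of 29 Wnt genes 8 were higher and 4 lower (median -0.0034), which became 4 higher and 7 lower of 27 without the 18-cell cluster (median -0.034). Rspo2, which amplifies Wnt signalling, was at 33.2 against 88.2 CPM. Of 29 TGF-beta and BMP genes 8 were higher and 6 lower (median 0.097), with the ligand gene Tgfb3 at 78.5 against 22.8 CPM. Of 34 lung mesenchyme transcription factors 13 were higher and 2 lower (median 0.23), a larger share higher than over all genes. The highest ratio was that of Klf4, which is also on the immediate early list. The nuclear factor gene Nfib had the highest level and stayed below the 1.5-fold limit, at 1907 against 1643 CPM. Of 17 integrin genes 5 were higher and 4 lower (median 0.098). Other lists had a median below 0: of 20 basement membrane genes 2 were higher and 5 lower (median -0.10), of 19 FGF genes 3 and 2 (median -0.25), and of 28 vascular and guidance genes 10 and 8 (median -0.27), or 5 and 7 of 27 without the 18-cell cluster.

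The MatFB types were also taken singly, as alternatives chosen after the data were seen. Against MatFB-Type 2 cells, 115 genes (3.04%) were at least 2-fold higher and 87 (2.3%) lower, and against MatFB-Type 1 cells 204 (5.15%) and 230 (5.8%). All 27 immediate early genes measured were at least 1.5-fold higher against MatFB-Type 2 (median 2.24), where 9.91% of all genes were higher and 14.3% lower. Against MatFB-Type 1, 25 of 27 were (median 2.56), with 20% of all genes higher and 18.9% lower. Of the 199 MatFB-Type 1 cells, 191 held UMIs of Y-linked genes without Xist and 2 the reverse, while the 205 cells held 83 and 97. Cells were not assigned to pups, so the part of sex or pup in the MatFB-Type 1 contrast was not tested. Among cells with Y-linked UMIs only, the immediate early median against the other MatFB cells was 2.44, and among cells with Xist UMIs only it was 2.36. The alveolar fibroblast median was -0.92 and -0.90 in the same subsets, and -0.86 over all cells. The comparators differed: the Y-linked subset held 191 MatFB-Type 1 and 248 MatFB-Type 2 cells, and the Xist subset 2 and 311. The part of sex in these differences was not tested.

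Against AdvFB cells, the 205 cells had far more of the alveolar program and less of the adventitial matrix. Of 4004 genes tested, 356 (8.89%) were at least 2-fold higher and 449 (11.2%) lower. At the 1.5-fold limit used for lists, 18.9% of the 14320 genes measured were higher and 18.7% lower (median 0.078). All 19 alveolar fibroblast markers were higher (median 4.02). The actin-binding nebulette Nebl was at 1474 against 31.5 CPM (46.8-fold, 38.9 to 56.7), and Npnt, at 1239 against 55.1 CPM, was 22.5-fold higher (19.5 to 26). The chemokine Cxcl14 (111 against 2.44 CPM), the transmembrane collagen Col13a1 (352 against 10.3), the giant cadherin Fat3 (314 against 8.15) and the methyltransferase Inmt (718 against 22.3) were also among the 12 highest. Fgf10, a growth factor for the epithelium, was at 222 against 23.6 CPM.

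AdvFB cells exceeded the 205 cells for collagens and for adventitial and contractile genes. Periostin (Postn) was at 2036 CPM in AdvFB and 16.4 in the 205 cells, Dcn at 2674 against 56.9, and the transcription factor Ebf1 at 1127 against 20.1. Col1a1 was 7.03-fold lower in the 205 cells (6.86 to 7.2), and 13 of 24 collagen genes were lower and 4 higher (median -0.97). Of 15 chemokine genes 13 were lower and 2 higher (median -2.61). The neuropeptide gene Grp (265 CPM in AdvFB, 1.19 in the 205 cells), Myocd (124 and 0.474), Synpo2 (168 and 1.19) and Ptprz1 (77.1, and no UMI) were among the 12 lowest, but they came largely from the contractile cluster of 56 cells. In the 92 AdvFB cells outside it these genes stood at 16.5, 11.0, 2.54 and 0.423 CPM, and Acta2 at 61.8 in place of 1485 CPM. The smooth muscle list turned with that choice: 13 of 14 genes were lower against all AdvFB cells (median -3.42), while against the 92 cells 6 of 11 were higher and 3 lower (median 0.62). In the latter contrast 21.2% of 13843 genes were higher and 17.2% lower. Postn (2708 CPM in the 92 cells) had the lowest ratio of the genes ranked, and Dcn, Ebf1 and Lum were among the 12 lowest.

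Against MyoFB cells, 429 of 4213 genes (10.2%) were at least 2-fold higher in the 205 cells and 508 (12.1%) lower. At 1.5-fold, 18.6% of the 13676 genes measured were higher and 21.6% lower (median -0.081). TMM scaling shifted all ratios upwards, to a median of 0.12, and gave 548 higher and 390 lower. All 19 alveolar fibroblast markers were higher (median 4.86), with Tcf21 at 1071 against 13.4 CPM (79.9-fold, 51.7 to 131). All 10 complement genes measured were higher than in MyoFB cells (median 2.72), whereas against AdvFB cells 2 of 12 were higher and 5 lower. The C1 inhibitor gene Serping1 was at 604 against 63.0 CPM. In the adventitial fibroblast list 12 of 18 genes were higher and 4 lower (median 2.19), with tetranectin (Clec3b) at 540 against 5.36 CPM. The transcription factor Meox2 (249 against 1.34 CPM) and the dipeptidase Dpep1 (476 against 4.02) were among the 12 highest. Immediate early genes were also higher, 16 of 27 with 1 lower (median 0.98).

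Most alveolar myofibroblast markers were far below their MyoFB level in the 205 cells. Egfem1 was at 5.45 CPM against 5443 in MyoFB cells, the matrix protein gene Tgfbi at 1.66 against 1540 and the synapse-organising neurexin Nrxn3 at 5.93 against 1777. Cardiac actin (Actc1), outside the marker list, was at 0.474 against 676 CPM. The Actc1 ratio changed sign against the MyoFB cells of the GFP-high tdTomato-negative library. Lgr6, also outside the marker list, had no UMI in the 205 cells and 354 CPM in MyoFB cells. That is at least 498-fold lower with a floor of 3 counts over the group. Of 14 alveolar myofibroblast markers 13 were lower and none higher (median -6.01), and of 14 smooth muscle genes 13 were lower and none higher (median -4.48). Pdgfra, a member of the former list, stood at 188 against 272 CPM, and the smooth muscle list's myosin light chain kinase (Mylk) at 917 against 934 CPM. Collagens did not separate the groups, with 8 of 22 higher and 8 lower (median 0.035), and Eln was at 5206 against 5808 CPM.

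**Figure D5:**
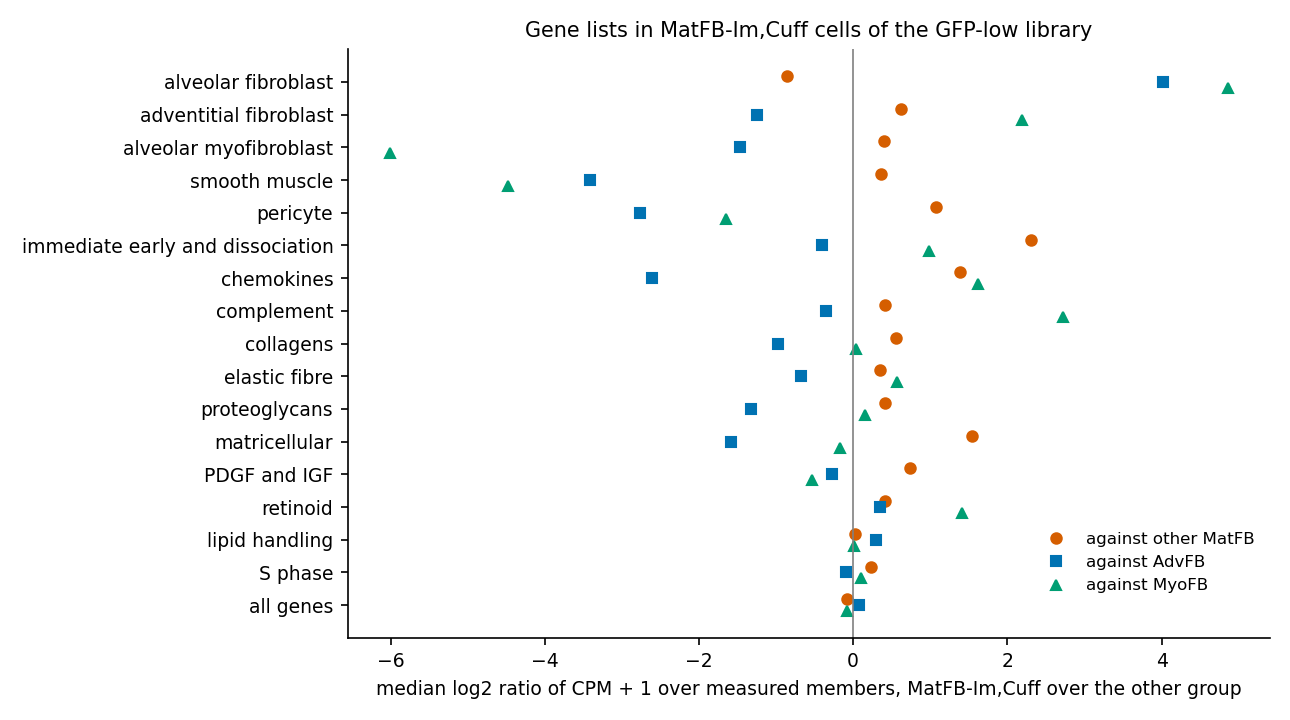
Median log2 ratio of CPM + 1 over the measured genes of each list, MatFB-Im,Cuff cells over the other MatFB (circles), AdvFB (squares) and MyoFB cells (triangles) of the GFP-low library. Alveolar fibroblast markers lie at -0.86 against the other MatFB cells and at 4.02 and 4.86 against AdvFB and MyoFB cells, and immediate early genes lie highest, at 2.31, against the other MatFB cells; the bottom row gives the median over all genes measured.

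The green reporter transcript (H2BGFP) was at 69.0 CPM in the 205 cells (61.3 to 77.4), 38.9 in the other MatFB, 73.6 in AdvFB and 154 in MyoFB cells, and Pdgfra, whose locus drives it, at 188, 148, 185 and 272 CPM. The tdTomato transcript was at 2.13 CPM, Fgf18 at 0.474 and the Cre transcript at 0.237 CPM, which for Fgf18 and Cre is 2 and 1 UMIs. All groups of this library were sorted as GFP-low and tdTomato-negative, so the sort had already selected on the fluorescence of both reporters. MyoFB cells of the same gate had 57.0 CPM of Fgf18. Mki67, a marker of cycling cells, was at 4.27 CPM against 1.13 in the other MatFB cells. Summed G2 and M phase genes were at 307 CPM in the 205 cells, 267 in the other MatFB, 158 in AdvFB and 286 in MyoFB cells. Of these genes 8 of 20 were higher and 2 lower against the other MatFB cells (median 0.51, or 0.20 without the 70-cell cluster). In that contrast 10.3% of all genes measured were higher and 14.8% lower. Against AdvFB cells 11 of 17 were higher and 1 lower (median 0.69), where the shares over all genes were 18.9% and 18.7%. Against MyoFB cells 4 of 16 were higher and 5 lower (median -0.36), near the shares over all genes of 18.6% and 21.6%. The summed epithelial markers (14 genes) were at 22.3 CPM, the endothelial (12) at 48.1, the immune (12) at 23.7 and the mesothelial (10) at 29.6; Epcam, Cdh5, C1qa and Wt1 gave no UMI. In the other MatFB cells these sums were 46.0, 25.4, 11.2 and 51.9 CPM. Their part in the differences was not tested.

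The GFP-high tdTomato-negative library held 110 further MatFB-Im,Cuff cells, 64.7% of its 170 MatFB cells, against 19.4% of 1055 in the GFP-low library; the GFP-high tdTomato-high library held 1. The name covered unlike mixes of cells: 92 of these 110 fell in the resolution 1.0 cluster that held 18 of the 205 GFP-low cells. Within the GFP-high tdTomato-negative library the contrast with the 60 other MatFB cells was wider for alveolar and adventitial genes. There 275 of 4126 genes (6.67%) were at least 2-fold higher and 217 (5.26%) lower. At 1.5-fold, 18.9% of the 11640 genes measured were higher and 12.6% lower. In the alveolar fibroblast list 18 of 19 genes were lower and none was higher (median -2.55), with Npnt at 282 against 1653 CPM and C7 at 11.1 against 317. Of 18 adventitial markers 14 were higher and 1 lower (median 1.08), with Dcn at 626 against 17.4 CPM. Wif1 was at 182 against 0.871 CPM, and Igfbp2 at 108 CPM with no UMI in the comparators.

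The immediate early contrast was narrower in that library. Of 27 genes measured, 9 were at least 1.5-fold higher and 1 lower (median 0.44), with Fos at 1368 against 968 CPM and Nr4a1 at 105 against 125. The level of Fos in MatFB-Im,Cuff cells was near that of the GFP-low library (1436 CPM), while the other MatFB cells there had 968 CPM in place of 118. Acta2 also turned, at 82.1 against 149 CPM. The cells compared under the name also differed. Of the 110 cells of the GFP-high library, 92 shared a cluster with only 18 of the 205 GFP-low cells, and Fos was at 576 CPM in those 18. The libraries are single, so gate, library and mix of cells cannot be told apart.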

How the data were processed

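Cell Ranger 7.0.0 and mm10 are named in the submitters' processing notes. The authors deposited raw UMI counts for 31730 genes and 6142 cells, and the authors' cell table gives each cell's gate, type, UMI count and percent of mitochondrial UMIs. Matrix sums equalled the deposited UMI count in all 6142 cells. Cell filters and the naming of types are not given in the sources used here. A further sorted population is not analysed here.

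The members and gene lists were chosen with earlier results of these data known. UMIs were summed per group, and log2 ratios taken after adding a pseudocount of 1 to each CPM. A gene was called at 2-fold where the higher group had 50 CPM or more and 10% or more of its cells held the gene; list members needed 10 UMIs in either group and were counted from 1.5-fold. Intervals are exact Poisson (levels) and conditional binomial (ratios). Alternatives added after the data were seen were the contrasts with each MatFB type alone and without the 70-cell cluster. Named genes were the 12 highest and 12 lowest per comparison (sex-linked, mitochondrial, ribosomal, haemoglobin and unnamed genes left out), a set of markers, and list members picked by their level or ratio; Lrat, Hpse2, Sema3d, Igfbp2, Aldh1a1 and Lgr5, among others in the cell clusters, were chosen after their values were seen. Cells were clustered with scanpy 1.11.5 (Leiden, 2000 variable genes, 30 components, 15 neighbours). No doublet caller was run, and 2 of the 205 cells exceeded 2 times their library's median UMIs. On simulated counts for the contrast with the other MatFB cells (3538 genes), the 2-fold limit was passed by all 106 genes with a simulated 4-fold change and by 0 of 3338 unchanged genes. These counts were drawn from a pooled profile with counting error alone and without the 10% limit on cells. They hold no variation between cells, clusters or libraries, so they give no rate of false calls for the real data. Gene positions came from GENCODE M21, whose symbols matched 30176 genes, and promoters from RefSeq. Python 3.11.15, numpy 2.4.6, scipy 1.17.1 and R 4.3.3 were used, with edgeR 4.0.16 and DESeq2 1.42.0 for scaling factors alone.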

Additional observations from a re-analysis of the deposited data

Results flagged for a closer look

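Immune marker genes pointed opposite ways in the 2 libraries that hold both MatFB-Im,Cuff and other MatFB cells, a difference that was not tested. In the GFP-low library 4 of 7 genes measured were higher in MatFB-Im,Cuff cells and 1 lower (median log2 ratio 0.77), and in the GFP-high tdTomato-negative library none of 2 was higher and 1 was lower (median -1.03). The shares over all genes measured were 10.3% higher and 14.8% lower in the former library, and 18.9% and 12.6% in the latter. The summed levels of the 12 listed genes were 23.7 against 11.2 CPM and 11.6 against 18.3 CPM. Without the 18-cell cluster the median in the GFP-low library was 0.28.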

How the results depend on the processing

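With 1 library per gate the intervals cover counting error only, and depth limits genes of a few UMIs. No paired analysis was possible because each gate has 1 library and no result comes from a test. With a minimum of 10 CPM, genes higher and lower numbered 311 and 242 against the other MatFB, 767 and 1044 against AdvFB and 867 and 1251 against MyoFB cells; with no minimum they numbered 628 and 681, 1323 and 1703, and 1567 and 1558. Against the other MatFB cells they numbered 275 and 217 within the GFP-high tdTomato-negative library and 204 and 230 against MatFB-Type 1 alone. These 16 counts lay over 1.5 times from those reported; the other counts did not. At Leiden resolution 2.0 the cluster with most members held 73, in place of 152.

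Of 1741 values of named genes under the alternatives, 1287 stayed within their counting interval, 443 moved outside it and 11 changed sign; of 1833 list medians, 1671, 158 and 4 did. Within the GFP-high tdTomato-negative library the log2 ratio against the other MatFB cells was -0.85 for Acta2, -0.87 for Mki67, -0.25 for Nr4a1 and 0.14 for Rgs22. Against MatFB-Type 1 alone it was 0.23 for Inpp4b and 0.072 for Kctd8. Against AdvFB cells outside the contractile cluster Acta2 was at 1.56, Tagln at 1.43 and the smooth muscle median at 0.39 over the 14 genes measured against all AdvFB cells. Against the AdvFB cells of the GFP-high tdTomato-negative library Acta2 was at 2.37, Tagln at 2.04, the epithelial median at 0.60 and the Notch median at 0.31. Against the MyoFB cells of that library Actc1 was at 0.56, and among cells with Xist UMIs the erythroid median against MyoFB cells was -0.23. The cause was not tested.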
